A study of Homo sapiens with 8 samples.

Results

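The histone genes of 2 human fibroblast lines were examined in polyadenylated RNA, with and without knockdown of SUPT4H1. Members were chosen by symbol: every gene whose name in the deposited tables starts with HIST1, HIST2, HIST3 or HIST4, or with H1F, H2AF or H3F3. This gave 91 of the 25268 symbols in the tables. Of these, 73 have HIST symbols and are called clustered here. The other 18 are called genes outside the clusters, and most of them encode histone variants. The split is by symbol and not by place. HIST4H4 is at hg19 chromosome 12, 14923654, near H2AFJ at 14927270, a gene of the other class. HIST2H2BA is at chromosome 1, 120906034, far from other HIST2 members such as HIST2H2BE at 149856010. The HIST symbols comprise 6 H1, 18 H2A, 20 H2B, 14 H3 and 15 H4 genes, and 56 of them are HIST1 genes. HIST1H2APS1, HIST2H2BA, HIST2H2BC and H3F3AP4 are pseudogenes and H1FX-AS1 is an antisense RNA, and they are kept because the choice is by name.

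Each line was transfected with a control siRNA or with an siRNA against SUPT4H1, with 2 replicates of each in each line, so 8 samples in all. SUPT4H1 encodes SPT4, which together with SPT5 forms the elongation factor DSIF of RNA polymerase II. All samples were cultured fibroblasts grown in DMEM with serum and transfected with Lipofectamine RNAiMAX, and the siRNA was the only labelled difference within a line. The labels do not say that replicates were separate cultures, so p-values measure the spread among these 8 samples and part of it may be technical. The time after transfection is not given in the sources used here.

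Histone messengers come in 2 kinds. The clustered genes are replication-dependent: they have no introns, are transcribed mainly in S phase, and their messengers end in a conserved stem-loop in place of a poly(A) tail. The stem-loop is bound by the protein SLBP, and the end is cut with help of the U7 small nuclear RNP. Genes for variants such as H2A.Z, H3.3 and H1.0 lie elsewhere, are transcribed throughout the cell cycle, and give ordinary spliced or polyadenylated messengers. Some clustered genes are also known to give polyadenylated transcripts from a downstream poly(A) site, mainly in cells that have left the cycle. A library made from polyadenylated RNA therefore does not measure the stem-loop form of a clustered gene, and the values below are for RNA that carried a tail.

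The stem-loop was searched for in the GENCODE v29 transcripts of GRCh38 as the stem arm GGCTCT, a loop of TTT and any base, and the arm AGAGCC, read on the strand of the transcript with no mismatch. It was found in 26 of 57133 genes (0.0455%), of which 22 were among the 73 clustered members (30.1%), and in 0 of the 18 members outside the clusters. For 32 of the clustered members the catalogue holds coding sequence only, where the motif could not be seen. Among the other 41, 22 held it (53.7%). A broader form, in which some bases of the stem may vary, was in 40 of all genes (0.07%). It was in 32 of the 73 clustered members (43.8%), which is 78% of the 41. HIST1H2AG and HIST1H4H, both with a mean of at least 1 FPKM, hold only this broader form. H2AFX, which is known to give a stem-loop as well as a polyadenylated messenger, also holds only the broader form. It was the only member outside the clusters to hold it. Shown here are the sites of the 5 clustered members that hold the exact motif and had a mean level of at least 1 FPKM. Each is given 5′ to 3′ as DNA with the stem-loop in capitals:
HIST1H2AC: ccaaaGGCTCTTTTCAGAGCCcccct
HIST1H2BC: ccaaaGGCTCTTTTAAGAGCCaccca
HIST1H2BD: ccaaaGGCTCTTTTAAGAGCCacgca
HIST2H2BE: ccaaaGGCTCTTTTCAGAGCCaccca
HIST3H2A: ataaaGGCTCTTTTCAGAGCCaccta
The 5 sites differ among themselves only in the last base of the loop and in the flanks. After the stem-loop the catalogued transcripts ran on for 1114 and 1128 bases in HIST1H2AC, 116 in HIST1H2BC, 39 in HIST1H2BD, 1729 in HIST2H2BE and 390 in HIST3H2A. HIST1H2AC, HIST1H2BC and HIST1H2BD each also had 1 catalogued transcript that lacks the stem-loop. Long stretches after the stem-loop were also catalogued for members under 1 FPKM. They were 1917 bases in HIST3H2BB (mean 0.144 FPKM) and 1154 in HIST2H3A (listed at 0 FPKM, with a limit given below). Others were short, with 39 bases in HIST1H2AI (0.0569 FPKM). A long stretch after the stem-loop is where a tailed transcript of a clustered gene would differ from the replication-dependent form. The tables analysed here hold 1 value per gene and do not separate the transcript ends.

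SUPT4H1 was at 25.6 and 25.6 FPKM in the line 1 controls and at 26.2 and 28.3 FPKM in the line 2 controls. After the SUPT4H1 siRNA it was at 1.37 and 1.43 in line 1 and at 1.69 and 1.74 in line 2, so the labels hold in every sample. FPKM are fragment counts divided by the length of the modelled transcript and by the size of the library, summed here over rows of one symbol. They can be compared between genes only as far as the models match the transcripts. For some clustered members catalogued transcripts run past the end of the model, as given below. Depth in fragments is not given in the deposited tables, whose FPKM summed to between 288293 and 305680 per sample. The 8 fibroblast markers summed to between 13114 and 14033 FPKM in the control samples and between 11813 and 14131 after the SUPT4H1 siRNA. All 4 endothelial and all 4 melanocyte markers and 5 of 6 keratinocyte markers were under 1 FPKM in every sample, with KRT5 and KRT1 at 0. Of 5 immune markers CD3E and MS4A1 were at 0, and the list's sum, nearly all CD68, was 45.1 to 51.9 FPKM in the control samples and 59.4 to 78.1 after the SUPT4H1 siRNA. Its part in the results below was not tested. In bulk RNA, fewer cells in a state and less RNA per cell cannot be told apart.

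Few clustered histone genes reached 1 FPKM in the polyadenylated RNA of these fibroblasts, and 6 of the 12 that did were H2B members. The median over the 73 clustered members of the mean FPKM was 0.0396, against 3.946 over the 18 members outside the clusters. All 8 samples listed 24 clustered members at 0, another 37 had a mean above 0 and under 1, and 12 had a mean of at least 1. Those listed at 0 include HIST2H2AA3 with HIST2H2AA4 and HIST2H3A with HIST2H3C. The genes of each such pair share the same stem-loop site and the same catalogued length after it. How reads that match several places were counted is not given, so these zeros may not measure the level. Only HIST1H2BK, HIST1H2AC, HIST1H2BD and HIST1H1C reached a mean of 10. Outside the clusters 11 of 18 had a mean of at least 1 and 7 reached 10. By histone family, 6 of 20 clustered H2B, 3 of 18 H2A, 1 of 6 H1, 1 of 14 H3 and 1 of 15 H4 genes had a mean of at least 1. These counts describe levels, with no test, and they mix the make-up of the library with the transcription of each gene.

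**Figure D1:**
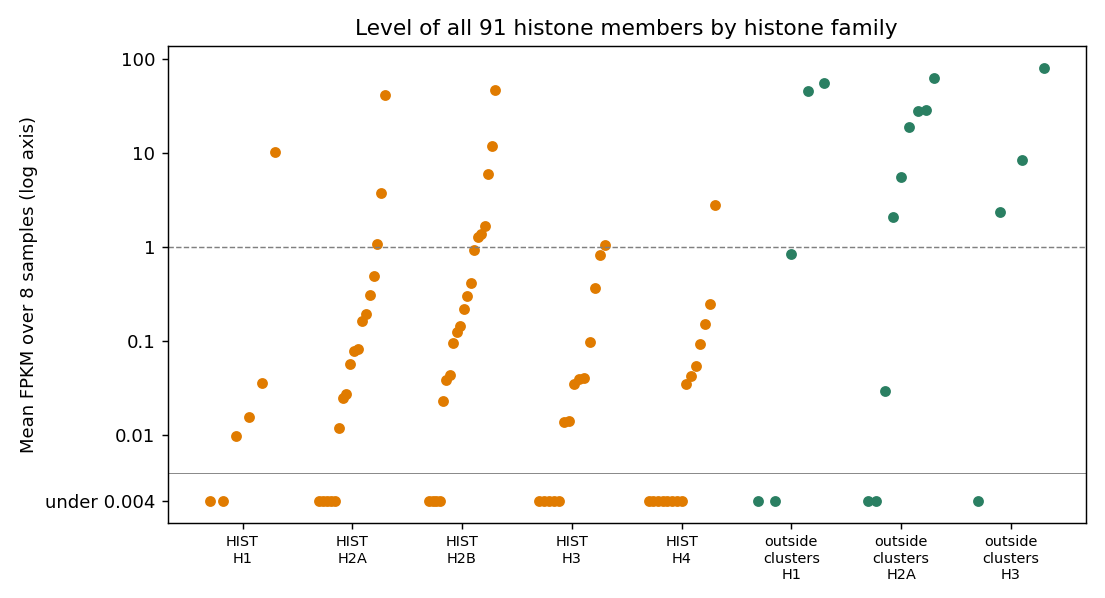
Mean FPKM over 8 samples (log axis) of each of the 91 members, 1 point per gene, by family for HIST genes (orange) and genes outside the clusters (green). Points on the lowest line are under 0.004, 27 of them listed at 0 in all samples, and the dashed line at 1 is the level needed for a test: 12 HIST genes and 11 others lie above it.

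The deposited gene models differ in length among the clustered members. The 12 that reached a mean of 1 FPKM have a median span of 522 bases, and 4 of them span over 1000 bases. The other 61 have a median span of 459 bases, and 2 of them span over 1000. HIST1H2BD, at hg19 chromosome 6, 26158349 to 26171576, spans 13228 bases, and HIST1H2BK, at chromosome 6, 27106072 to 27114637, spans 8566 bases. Both spans are far longer than a histone coding sequence. HIST1H2AC, by contrast, is modelled as the 546 bases of chromosome 6 from 26124373 to 26124918, so the longer catalogued transcripts run past the end of its model. HIST2H2BE, at chromosome 1, 149856010 to 149858232, is modelled with 2223 bases. The members just above the level of 1 FPKM were HIST1H3E at 1.05 and HIST1H2AG at 1.08, and those just below it were HIST1H2BG at 0.938, H1FX-AS1 at 0.838 and HIST1H3D at 0.824.

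The summed FPKM of the 73 clustered members rested on a few genes. In line 1 the sum was 131 and 131 in the control samples and 160 and 164 after the SUPT4H1 siRNA, and the groups did not overlap. In line 2 it was 122 and 125 in the control samples and 122 and 125 after the SUPT4H1 siRNA, and the groups overlapped. The 3 most abundant members held between 70.6 and 77.2% of the sum in each sample. HIST1H2BK and HIST1H2AC were among them everywhere, joined by HIST1H1C in the line 2 controls and by HIST1H2BD in the others. The 18 members outside the clusters summed to 377 and 376 FPKM in the line 1 controls and to 364 and 375 after the SUPT4H1 siRNA, and in line 2 to 312 and 320 and then to 296 and 296. H3F3B, H1F0 and H2AFZ led this sum in every sample, with between 53.8 and 62.3% of it. The sums are descriptions and were not tested.

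After SUPT4H1 knockdown, 5 of the 12 clustered members tested rose and 0 fell, while 4 of the 11 tested outside the clusters rose and 3 fell. The test was limma on log2(FPKM + 1) with the line as a block, and a gene was called at a Benjamini-Hochberg adjusted p under 0.05 over 11444 genes. Of all genes tested, 42.1% were called, 26.8% up and 15.2% down, so a large part of the transcriptome differed between the siRNAs at this threshold. The split depends on the scaling: 3071 genes were called up and 1743 down as deposited, and 2319 up and 2310 down after scaling by median ratios. With that scaling 3 clustered members rose, HIST1H2AC, HIST1H2BD and HIST1H2AG, and 4 members outside the clusters rose and 4 fell. Of the 23 tested members 12 were called (52.2%), a share near that background. Among the clustered members, 6 were up and 0 down at an unadjusted p under 0.05 in limma. The median log2 change was 0.15 over the clustered members tested and -0.08 over those outside the clusters, beside 0.03 over all genes. With the pseudogenes left out the medians were 0.08 over 11 clustered genes and 0 over 10 genes outside the clusters. Without a term for the line, limma called 1 member, H2AFX, which rose, and 0 clustered members, beside 5.34% of all genes, 3.56% up and 1.78% down. At an unadjusted p under 0.05 that fit had 3 clustered members and 3 of the others up, and 0 down. At control siRNA 58% of all genes differed between the lines. Differences are on the log2(FPKM + 1) scale, which understates the change of genes near 1 FPKM.

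HIST1H2AC, an H2A gene of the large cluster on chromosome 6, was at 39.3 and 40.2 FPKM in the line 1 controls and at 56.3 and 58.6 after the SUPT4H1 siRNA. In line 2 it was at 31 and 33.5 and then at 34.5 and 36.1. The groups did not overlap in either line, and the rise of 44.4% in line 1 stood against 9.43% in line 2. Its log2 change was 0.32 (SE 0.072, adjusted p = 0.00632), and 0.41 was its adjusted p without the block. It held the call in each of the 8 fits that left out 1 library, with adjusted p between 0.00309 and 0.0218.

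HIST1H2BD, an H2B gene of the same cluster, was at 11.2 and 10.3 FPKM in the line 1 controls and at 15.9 and 13.6 after the SUPT4H1 siRNA. The line 2 samples were at 10.3 and 10.3 and then at 11.9 and 12.3. The samples of the SUPT4H1 siRNA were higher than every control sample in both lines. Its log2 change was 0.32 (SE 0.057, adjusted p = 0.00223, and 0.0778 without the block).

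HIST1H2AG had the largest log2 change of the members tested, from a low level. It reached the mean of 1 FPKM needed for the test only through the samples of the SUPT4H1 siRNA, with a mean of 0.65 FPKM in the controls and 1.51 after the SUPT4H1 siRNA, so its place among the 5 rises is not independent of that filter. It was at 0.38 and 1.11 FPKM in the line 1 controls and at 1.28 and 1.29 after the SUPT4H1 siRNA, and in line 2 at 0.363 and 0.751 and then at 2.06 and 1.44. The log2 change was 0.62 (SE 0.15, adjusted p = 0.00964, and 0.0758 without the block). The deposited intervals show how few fragments lie behind these values: 0.0401 to 0.719 in the first control sample and 1.21 to 2.9 in the highest sample.

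HIST1H2BJ, the H2B gene that faces HIST1H2AG across a shared upstream region, was at 1.49 and 1.02 FPKM in the line 1 controls and at 1.38 and 1.49 after the SUPT4H1 siRNA. In line 2 it was at 1.03 and 0.866 and then at 1.55 and 1.33. The groups overlapped in line 1 and not in line 2. Its log2 change of 0.22 (SE 0.078, adjusted p = 0.0467) was lost, with adjusted p between 0.0785 and 0.13, when any of 6 libraries was left out. These were control replicate 2 and SUPT4H1 siRNA replicate 2 of line 1 and all 4 libraries of line 2.

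HIST3H2A, the H2A gene of the small cluster on chromosome 1 (hg19 228645065 to 228645560), was at 3.34 and 3.71 FPKM in the line 1 controls and at 3.89 and 6.17 after the SUPT4H1 siRNA. The line 2 samples were at 3.25 and 2.42 and then at 3.68 and 3.45. The groups did not overlap within either line, and 1 library, SUPT4H1 siRNA replicate 2 of line 1, was far above the rest. The log2 change of 0.32 (SE 0.11, adjusted p = 0.0444) was lost when any 1 of 6 libraries was left out. It held without SUPT4H1 siRNA replicate 1 of line 1 and without control replicate 1 of line 2. The 6 lost calls had adjusted p between 0.065 and 0.119, and without the library that stood far above, the log2 change was 0.20 (adjusted p = 0.0733).

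The most abundant clustered member did not pass the test. HIST1H2BK was at 48.9 and 50.5 FPKM in the line 1 controls and at 50.3 and 51.8 after the SUPT4H1 siRNA, and in line 2 at 43.8 and 42.9 and then at 39.9 and 44.2. The groups overlapped in both lines, and the log2 change was -0.0041 (SE 0.036, adjusted p = 0.94). HIST2H2BE, the H2B gene whose catalogued transcript runs longest past the stem-loop among those shown, was at 5.95 and 5.83 FPKM and then at 6.03 and 6.28 in line 1, and at 5.64 and 5.94 and then at 6.29 and 6.29 in line 2. Its small difference, with a log2 value of 0.08 (adjusted p = 0.0639), did not pass the test, although the groups did not overlap in either line.

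**Figure D2:**
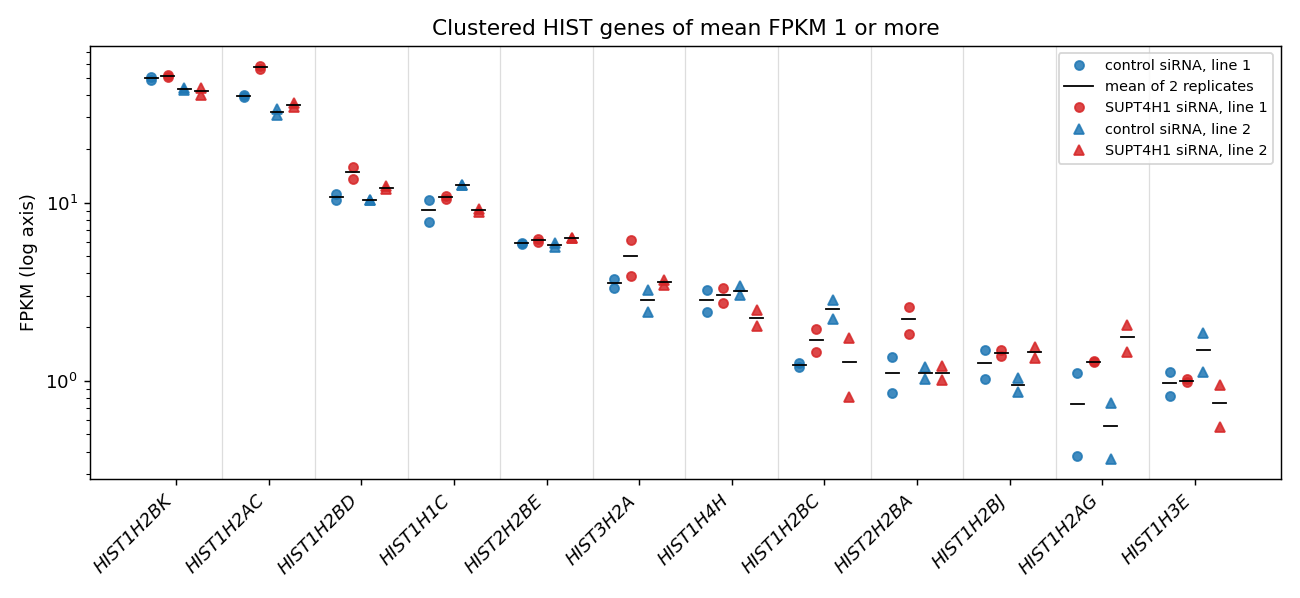
FPKM (log axis) of the 12 clustered members with a mean of at least 1, for each sample: control siRNA in blue, SUPT4H1 siRNA in red, line 1 as circles and line 2 as triangles, with a bar at the mean of 2 replicates. HIST1H2AC lies at 56.3 and 58.6 after the SUPT4H1 siRNA in line 1, above its other 6 samples, and HIST1H2BC and HIST1H1C lie lower after the SUPT4H1 siRNA in line 2.

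Responses of the clustered members differed between the lines for 3 of 12 genes, all with the lower response in line 2, beside 9.87% of all genes tested and 4.48% with the lower response in line 2. In line 1, 3 clustered members rose and 0 fell (5 and 0 at an unadjusted p under 0.05 in limma), beside 19% of all genes up and 11.7% down. In line 2, 4 rose and 4 fell, beside 26.9% up and 15.9% down. The median log2 change over the 12 was 0.25 in line 1 and 0.05 in line 2, beside 0.03 and 0.04 over all genes. The members that rose in line 1 were HIST1H2AC, HIST1H2BD and the pseudogene HIST2H2BA. Those that rose in line 2 were HIST1H2AC, HIST1H2BD, HIST1H2AG and HIST1H2BJ, and those that fell there were HIST1H1C, HIST1H2BC, HIST1H3E and HIST1H4H. These calls come from a fit of 4 group means in which each line and siRNA has 2 samples. Leaving out 1 library gave 3 to 4 rises in line 1, and 1 to 4 rises and 1 to 4 falls in line 2. The lowest count of rises came without control replicate 1 of line 2, and the lowest count of falls without control replicate 2 of line 2, where the fall of HIST1H1C alone passed. Within line 2 the rise of HIST1H2BD was lost without any 1 of that line's 4 libraries (adjusted p between 0.0522 and 0.105). That of HIST1H2AG was lost without control replicate 1 (0.0529), and that of HIST1H2BJ without control replicate 2 (0.125) or SUPT4H1 siRNA replicate 1 (0.132).

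HIST1H1C encodes the linker histone H1.2, which binds the DNA that enters and leaves the nucleosome. It was at 10.3 and 7.74 FPKM in the line 1 controls and at 10.5 and 10.9 after the SUPT4H1 siRNA. In line 2 it was at 12.5 and 12.5 and then at 8.83 and 9.24. The samples of line 2 separated by siRNA with lower values after the SUPT4H1 siRNA, and those of line 1 separated the other way by a narrow margin. The log2 change in line 2 was -0.43 (adjusted p = 0.00491) and in line 1 it was 0.23 (adjusted p = 0.0906, not passing). The response in line 2 minus that in line 1 was -0.66 (SE 0.13, adjusted p = 0.0134), a difference lost only without SUPT4H1 siRNA replicate 2 of line 1 (adjusted p = 0.0618). With both lines in the main fit, its log2 value of -0.10 did not pass (adjusted p = 0.571).

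For HIST1H2AC both lines moved up, and the response in line 2 minus that in line 1 was -0.39 (SE 0.058, adjusted p = 0.00288). Its log2 change was 0.52 in line 1 (adjusted p = 1.73e-05) and 0.13 in line 2 (adjusted p = 0.0324). The difference between the lines held without each library in turn, with adjusted p from 0.00226 to 0.0183. The smaller rise in line 2 was lost without control replicate 1 (log2 value 0.07, adjusted p = 0.211) or SUPT4H1 siRNA replicate 2 of that line (adjusted p = 0.186). It was also lost when the samples were scaled by median ratios (adjusted p = 0.0778).

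HIST1H2BC, the H2B gene transcribed away from HIST1H2AC, was at 1.19 and 1.26 FPKM in the line 1 controls and at 1.96 and 1.45 after the SUPT4H1 siRNA. The line 2 samples were at 2.23 and 2.85 and then at 1.74 and 0.813. The groups did not overlap in either line, and they were ordered in opposite ways. The log2 change was 0.27 in line 1 (adjusted p = 0.254, not passing) and -0.66 in line 2 (adjusted p = 0.0111), and the difference between them was -0.94 (SE 0.24, adjusted p = 0.0391). That difference was lost in 7 of the 8 fits that left out 1 library, with adjusted p between 0.052 and 0.121, and held only without SUPT4H1 siRNA replicate 1 of line 2 (adjusted p = 0.00406). In line 2 the fall itself was lost without control replicate 2 (log2 value -0.53, adjusted p = 0.0769) or without SUPT4H1 siRNA replicate 2 (-0.36, adjusted p = 0.0593).

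HIST1H3E, an H3 gene, was at 1.12 and 1.85 FPKM in the line 2 controls and at 0.942 and 0.55 after the SUPT4H1 siRNA, a log2 change of -0.50 (adjusted p = 0.0191). It reached a mean of 1 FPKM only through these controls, which averaged 1.49 beside 0.971, 1 and 0.746 in the other groups, so this fall is not independent of the filter. HIST1H4H, an H4 gene, was at 3.01 and 3.39 and then at 2.02 and 2.5, a log2 change of -0.37 (adjusted p = 0.0225). In line 1 the same 2 genes gave log2 values of 0.03 and 0.08, neither of which passed, and the difference between the lines did not pass for either (adjusted p = 0.147 for HIST1H3E and 0.112 for HIST1H4H). The fall of HIST1H3E was lost without control replicate 2 (log2 value -0.29, adjusted p = 0.139) or SUPT4H1 siRNA replicate 2 of line 2 (-0.34, adjusted p = 0.134). That of HIST1H4H was lost without control replicate 2 (0.119) or SUPT4H1 siRNA replicate 1 of line 2 (0.147). HIST2H2BA, a pseudogene, was at 0.856 and 1.37 FPKM in the line 1 controls and at 2.58 and 1.84 after the SUPT4H1 siRNA, a log2 change of 0.61 (adjusted p = 0.00652). Without SUPT4H1 siRNA replicate 1 of that line it was 0.44 (adjusted p = 0.0578), and in line 2 the log2 value was 0.0038. For HIST2H2BA the difference between the lines was -0.60 and did not pass (adjusted p = 0.0725).

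**Figure D3:**
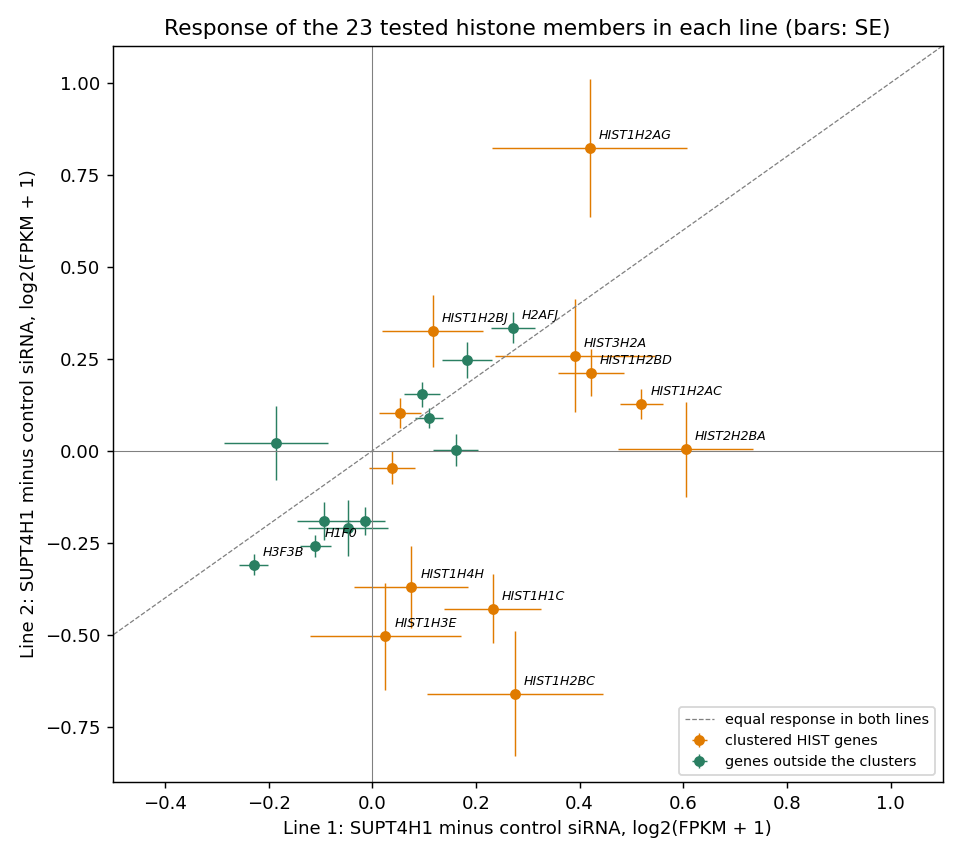
Log2 change in line 2 (vertical) against that in line 1 (horizontal) on the log2(FPKM + 1) scale for the 23 tested members, with standard errors as bars, HIST genes in orange and genes outside the clusters in green. The dashed line marks equal responses: HIST1H1C, HIST1H2BC and HIST1H2AC lie below it with the differences of -0.66, -0.94 and -0.39 that passed the test.

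Among the genes outside the clusters the largest log2 change was 0.30 in size, against 0.62 among the clustered members. The latter is that of HIST1H2AG, which reached the filter only through the samples of the SUPT4H1 siRNA. The next largest clustered changes were near 0.30 as well, at 0.32 for HIST3H2A, HIST1H2AC and HIST1H2BD. Outside the clusters the 4 that rose encode H2A variants. The 3 that fell there are an H1 gene and 2 H3.3 genes or copies. Not all H2A variant genes tested were higher: H2AFY2, for macroH2A2, had a mean of 2.24 FPKM in the controls and 1.93 after the SUPT4H1 siRNA. It did not pass the test (log2 value -0.13, adjusted p = 0.12). In line 1, 4 of the 11 rose and 2 fell, beside 19% of all genes up and 11.7% down. In line 2, 4 rose and 4 fell, beside 26.9% and 15.9%. The response differed between the lines past the threshold in limma for 0 of the 11, beside 9.87% of all genes, with 3 at an unadjusted p under 0.05. Leaving out 1 library gave 1 to 4 rises and 1 to 2 falls in line 1. The 1 rise was H2AFJ, without control replicate 1 or without control replicate 2 of line 1, when the line has a lone control sample that is assumed to vary like the other groups.

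H2AFJ encodes H2A.J, a variant known to build up in senescent fibroblasts. It was at 4.4 and 4.32 FPKM in the line 1 controls and at 5.4 and 5.54 after the SUPT4H1 siRNA, and in line 2 at 5.17 and 5.51 and then at 6.95 and 7.03. The groups did not overlap in either line, and the level rose by 25.5% in line 1 and by 30.9% in line 2. The log2 change was 0.30 (SE 0.032, adjusted p = 1.16e-04), and 0.15 was the adjusted p without the block. At control siRNA H2AFJ was also higher in line 2 than in line 1, by 0.24 on the log2 scale (adjusted p = 8.45e-04).

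H2AFX encodes H2A.X, the variant that is phosphorylated at DNA breaks. It was at 17.7 and 17.5 FPKM in the line 1 controls and at 20.5 and 19.8 after the SUPT4H1 siRNA, and in line 2 at 16.3 and 18.4 and then at 20.7 and 20.8. All 4 samples of the SUPT4H1 siRNA were above all 4 control samples. The log2 change was 0.22 (SE 0.037, adjusted p = 0.00173), and H2AFX was the only member that also passed without the block (adjusted p = 0.0317).

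H2AFV and H2AFY rose by less. H2AFV encodes the second form of H2A.Z, which marks promoters, and was at 27.8 and 28.4 FPKM and then at 29.3 and 30.9 in line 1, and at 24.4 and 25.5 and then at 27.8 and 27.9 in line 2. Its log2 change was 0.13 (SE 0.028, adjusted p = 0.00616). H2AFY encodes macroH2A1, a variant with a large added domain that is known from silent chromatin, and was at 28.5 and 28.2 FPKM and then at 30.8 and 30.5 in line 1, and at 27.2 and 26.8 and then at 28.9 and 28.7 in line 2. Its log2 change was 0.10 (SE 0.021, adjusted p = 0.00515). Both separated by siRNA within each line. H2AFZ, which encodes the main form of H2A.Z, was at 61.5 and 61.8 FPKM and then at 68 and 70.2 in line 1, and at 58.2 and 61.4 and then at 62.6 and 57.2 in line 2, and did not pass the test (log2 value 0.08, adjusted p = 0.147).

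H3F3B, one of the genes for the replacement histone H3.3, was the most abundant member. It was at 105 and 105 FPKM in the line 1 controls and at 88.4 and 90.7 after the SUPT4H1 siRNA, and in line 2 at 71 and 72.2 and then at 56.8 and 58.5. The groups were far apart within each line, and the line 2 controls lay below the SUPT4H1 siRNA samples of line 1. The log2 change was -0.27 (SE 0.026, adjusted p = 8.46e-05), and 0.559 was the adjusted p without the block. The difference between the lines at control siRNA, -0.55 on the log2 scale, was larger than the response to the siRNA.

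The gene named H3F3AP4 in the deposited tables, a pseudogene symbol, is placed at hg19 chromosome 1, 226250428 to 226259703, the place of H3F3A, the other gene for H3.3. H3F3A itself had a mean of 0.0009 FPKM there, so reads of this locus were assigned to one of 2 overlapping entries, and they cannot be separated. H3F3AP4 was at 8.99 and 10 FPKM and then at 8.77 and 8.89 in line 1, and at 8.17 and 8.05 and then at 7.22 and 6.76 in line 2, with no overlap within either line. Its log2 change was -0.14 (SE 0.04, adjusted p = 0.0182, and the same with both entries summed). The call was lost without control replicate 2 of line 1, control replicate 1 of line 2 or SUPT4H1 siRNA replicate 2 of line 2, with adjusted p between 0.0541 and 0.0548. H3F3C, an intronless H3.3-like gene, was at 1.72 to 3.37 FPKM over the 8 samples and did not pass (adjusted p = 0.439).

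H1F0 encodes H1.0, the linker histone that is most abundant in cells that have stopped dividing. It was at 67.9 and 67.9 FPKM in the line 1 controls and at 62 and 63.8 after the SUPT4H1 siRNA, and in line 2 at 50.7 and 51.9 and then at 41.9 and 43.5. The groups did not overlap in either line, and the mean fell by 7.4% in line 1 and fell by 16.7% in line 2. The log2 change was -0.18 (SE 0.034, adjusted p = 0.0025, and 0.636 without the block). H1FX, another linker histone gene, was at 48.6 and 47.8 and then at 46.3 and 49.3 in line 1, where the groups overlapped, and at 45.2 and 45.2 and then at 38.3 and 40.6 in line 2, and did not pass in the main fit (log2 value -0.10, adjusted p = 0.0719). Its antisense neighbour H1FX-AS1, too low to be tested, was at 1.26 and 1.28 FPKM and then at 0.766 and 0.877 in line 1, and at 0.547 to 0.693 in line 2, where the groups overlapped. Whether the counting used strand is not given, so reads of such a pair may not be told apart.

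**Figure D4:**
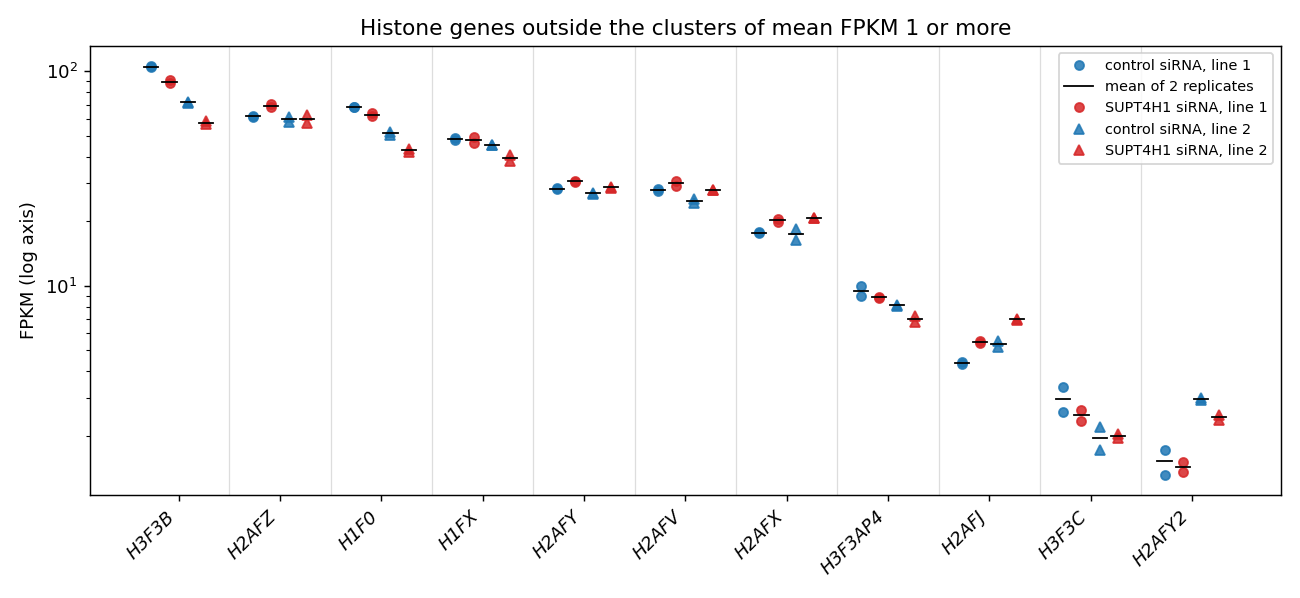
FPKM (log axis) of the 11 members outside the clusters with a mean of at least 1, for each sample: control siRNA in blue, SUPT4H1 siRNA in red, line 1 as circles and line 2 as triangles, with a bar at the mean of 2 replicates. H3F3B falls from 105 and 105 to 88.4 and 90.7 in line 1 and from 71 and 72.2 to 56.8 and 58.5 in line 2, while H2AFJ rises in both.

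At control siRNA the 2 lines already differed in many members. Of the clustered members tested, 2 were higher in line 2 and 2 lower, and of those outside the clusters 2 were higher and 5 lower, beside 24.2% and 33.8% of all genes. HIST1H2BC was higher in line 2 by 0.66 on the log2 scale (adjusted p = 0.0075) and HIST1H1C by 0.44 (adjusted p = 0.00278). For HIST1H2AC the value in line 2 minus that in line 1 was -0.30 (adjusted p = 1.89e-04). These are the 3 genes whose response differed between the lines, and a response is measured from the same control samples, so the control level and the response of a gene are not independent. Over both classes the groups did not overlap in either line, in 1 direction, for 9 members up and 3 down of the 23 tested, beside 28.8% and 16.6% of all genes, or 45.3% in the same direction.

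Many H2A and H2B genes of the clusters stand in pairs that are transcribed away from each other from a shared region. There were 12 divergent pairs of members with starts under 500 bases apart in the RefSeq annotation of GRCh38.p14. Of these 11 join an H2A and an H2B gene and 1 joins HIST1H3D and HIST1H2BF, which also pairs with HIST1H2AD, and in 4 of the 12 at least 1 gene reached a mean of 1 FPKM. HIST1H2AC at 41.2 FPKM faced HIST1H2BC at 1.69, and HIST2H2BE at 6.03 faced HIST2H2AC at 0.195. HIST3H2A at 3.74 faced HIST3H2BB at 0.144, and HIST1H2AG at 1.08 faced HIST1H2BJ at 1.27. In 3 of these 4 pairs the deposited level was thus far higher for one gene than for the other. The models of the lower genes span 438 bases in HIST1H2BC, 437 in HIST2H2AC and 452 in HIST3H2BB. Those of the higher genes span 546 bases in HIST1H2AC, 2223 in HIST2H2BE and 496 in HIST3H2A. A tailed transcript that runs past a short model may be counted only in part, and the effect on these levels was not tested. The regions between the starts of the 2 pairs in which both genes reached 1 FPKM are shown, on the plus strand of GRCh38.p14 from RefSeq. Capitals mark the octamer ATTTGCAT, the TATA motif TATAAA and the CCAAT motif on either strand, and where motifs overlap the capitals join:
HIST1H2BC and HIST1H2AC, chr6:26123927-26124171: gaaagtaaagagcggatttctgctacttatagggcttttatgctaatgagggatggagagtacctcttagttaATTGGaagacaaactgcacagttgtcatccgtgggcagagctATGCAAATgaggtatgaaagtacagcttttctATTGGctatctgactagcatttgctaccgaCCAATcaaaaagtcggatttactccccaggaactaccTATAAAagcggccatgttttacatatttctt
HIST1H2BJ and HIST1H2AG, chr6:27132796-27133042: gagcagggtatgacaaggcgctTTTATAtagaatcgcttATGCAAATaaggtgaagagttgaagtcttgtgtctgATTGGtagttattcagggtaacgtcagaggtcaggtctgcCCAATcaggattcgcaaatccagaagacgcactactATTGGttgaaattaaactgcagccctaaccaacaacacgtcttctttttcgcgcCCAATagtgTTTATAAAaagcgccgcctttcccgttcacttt
Each region holds 1 octamer. The 245 bases between HIST1H2BC and HIST1H2AC hold 1 TATA and 3 CCAAT motifs, and the 247 bases between HIST1H2BJ and HIST1H2AG hold 3 and 4. For HIST1H2AC and HIST1H2BC the log2 values were 0.52 and 0.27 in line 1, where the latter did not pass, and 0.13 and -0.66 in line 2, where the former was lost after scaling by median ratios. For HIST1H2AG and HIST1H2BJ they were 0.42 and 0.12 in line 1, where neither passed, and 0.82 and 0.32 in line 2, with the limits given above for each call.

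The promoter motifs were counted in the 250 bases before each gene's start, on both strands, in RefSeq promoters of GRCh38.p14, in which 65 clustered members and 14 of the others were matched. The octamer, the site of the factors OCT1 and OCT2 and long known from H2B promoters, stood in 40% of the clustered promoters and 1.66% of all 27305. It was in 77.8% of the clustered H2B and 68.8% of the clustered H2A promoters, which often share their region, and in 7.14% of those outside the clusters. TATAAA was in 66.2% of clustered promoters, 28.6% of the others and 11.1% of all. CCAAT, the site of NF-Y, was in 84.6%, 78.6% and 33%, and in 100% of the clustered H2A and of the clustered H2B promoters. The cyclic AMP response element TGACGTCA was in 13.8% of clustered promoters, 0% of the others and 1.77% of all. Of the 11 matched clustered members that reached 1 FPKM, 54.5% held the octamer and 72.7% TATAAA, beside 40% and 66.2% of all matched clustered members. These sets differ in make-up: of the 12 clustered members at that level, 3 were H2A and 6 were H2B genes, the families with the high octamer shares. The difference in shares was not tested. A match of letters is not evidence of binding.

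Of 33 genes for factors that transcribe, cut and degrade histone messengers, 32 were tested, 7 rose and 2 fell (28.1% called, beside 42.1% of all genes), and the median log2 change was 0.03, as over all genes. Without the block limma called 0, with 3 up and 1 down at an unadjusted p under 0.05. SLBP, which binds the stem-loop, was at a mean of 18.4 FPKM for either siRNA, with a log2 value of -0.0047 (adjusted p = 0.927). NPAT, the coactivator of clustered histone genes in S phase, had a log2 value of 0.04 (adjusted p = 0.417). The largest changes that passed were those of YBX3 and CSTF2T. YBX3, a cold-shock domain protein, rose by 0.22 (adjusted p = 0.00667), with log2 values of 0.085 in line 1 and 0.35 in line 2. For YBX3 the difference between the lines in the response passed (adjusted p = 0.00169). CSTF2T, a subunit of the cleavage stimulation factor, rose by 0.16 (adjusted p = 0.00136). CPSF1, a subunit of the cleavage and polyadenylation specificity factor, rose by 0.15 (adjusted p = 0.00112), and SRRT, the cap-complex protein ARS2, by 0.13 (adjusted p = 0.00394). ZCCHC11, which adds uridines to histone messengers in decay, fell by 0.14 (adjusted p = 0.00821). Leaving out 1 library gave 4 to 7 rises, with 4 rises without any 1 of control replicate 1, control replicate 2, SUPT4H1 siRNA replicate 1 or SUPT4H1 siRNA replicate 2 of line 2.

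Of the 24 histone chaperones and assembly factors, all tested, 8 rose and 1 fell. This is 37.5% called beside 42.1% of all genes, and the median log2 change was 0.07 beside 0.03. ASF1B, which carries new H3 and H4, rose by 0.38 (from 1.28 to 1.99 FPKM, adjusted p = 0.00228). HJURP, which deposits the centromeric H3 variant, rose by 0.26 (adjusted p = 0.0206). Its mean was 0.877 FPKM in the controls and 1.31 after the SUPT4H1 siRNA. HJURP thus reached the mean of 1 FPKM only through the latter samples, so this rise is not independent of the filter. CHAF1A, the large subunit of the replication-coupled assembly factor CAF-1, rose by 0.22 (adjusted p = 0.00494), and CABIN1, of the HIRA complex that deposits H3.3, by 0.21 (adjusted p = 8.13e-04). SSRP1, a subunit of the FACT complex, fell by 0.18 (adjusted p = 4.72e-04). Without the block limma called 0 of the list, with 4 up and 1 down at an unadjusted p under 0.05. The rise of HJURP was also lost when any 1 of the 4 libraries of line 2 was left out, with adjusted p between 0.0618 and 0.0648.

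Since clustered histone genes are transcribed in S phase, genes of S phase were measured beside them. Of 26 such genes 22 were tested, 9 rose and 1 fell, which is 45.5% called beside 42.1% of all genes. The median log2 change was 0.11 beside 0.03 over all genes, with 0.07 in line 1 and 0.14 in line 2. RRM2, a subunit of ribonucleotide reductase, rose by 0.41 (from a mean of 1.98 to 3.03 FPKM, adjusted p = 0.00954). PCNA, the sliding clamp of DNA polymerases, rose by 0.36 (from 31.7 to 40.8 FPKM, adjusted p = 4.87e-05), and TK1, thymidine kinase, by 0.35 (adjusted p = 0.00674). CDC6, which loads the replicative helicase, rose by 0.27 (adjusted p = 0.00817) and FEN1, a flap endonuclease, by 0.25 (adjusted p = 0.00847). CDC6 had a mean of 0.97 FPKM in the controls and 1.4 after the SUPT4H1 siRNA. It passed the filter of 1 FPKM only through the latter samples, so its rise is not independent of that filter. MCM7, a helicase subunit, fell by 0.18 (adjusted p = 0.00583). Without the block limma called 0 of the list, with 2 up and 1 down at an unadjusted p under 0.05. The part of the cell cycle in the values of the histone genes was not tested.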

How the data were processed

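Polyadenylated RNA was measured in 8 samples, 2 per siRNA and line. The authors deposited FPKM per gene with interval bounds and a status, and gene coordinates on hg19 (build per the submitters' processing notes). How reads were aligned and quantified, with which annotation and whether by strand, is not given in the sources used here. Depth in fragments is unknown, so the precision of a value is given by the deposited interval only.

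Rows spanning under 200 bases were left out, which left 23299 symbols, and rows of one symbol were summed. Genes entered the test with a mean FPKM over the 8 samples of at least 1 and the status OK in all, which left 11444 genes and 23 of the 91 members. Tests used limma 3.58.1 (R 4.3.3) and log2 of the deposited FPKM plus 1, with a mean-variance trend and the line as a block, 2-sided, with Benjamini-Hochberg adjustment over all genes tested and a threshold of 0.05. Responses within a line and their difference came from a fit of the 4 group means. The fits were tested on simulated data.

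The line pairs the samples. Deviations from the siRNA means correlated at 0.883 to 0.899 across genes between samples of the same line and at -0.897 to -0.884 between lines, so the block is the main fit here. The series groups the samples 4 against 4 with no such term, and the text gives that fit beside the results.

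The members and the gene lists were chosen with earlier results of these data known. The genes named are members past the threshold, the 6 most abundant of each class, members whose response differed between the lines, and up to 5 of each list with the largest change among those called. The other members tested, H2AFY2 among them, were named after their values were seen. So were HIST1H2BG, HIST1H3D, HIST1H2BF, HIST1H2AD, H1FX-AS1, HIST2H2AC, HIST3H2BB, HIST1H2AI, HIST2H3A, HIST4H4, SLBP, NPAT and MCM7. Sequences come from GENCODE v29 and RefSeq of GRCh38.p14, matched by symbol and not by hg19 coordinates. Joins ran in Python 3.11.15 with pandas 2.3.3 and numpy 2.4.6, and figures in matplotlib 3.10.9.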

Additional observations from a re-analysis of the deposited data

Results flagged for a closer look

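For 3 clustered histone genes the response to the SUPT4H1 siRNA differed between the lines by a test of the difference itself, an interaction term in limma over 11444 genes. The log2 response in line 2 minus that in line 1 was -0.66 for HIST1H1C (adjusted p = 0.0134), which was lower after the SUPT4H1 siRNA in both samples of line 2 and not lower in line 1. It was -0.39 for HIST1H2AC (adjusted p = 0.00288), which was higher in all 4 samples of the SUPT4H1 siRNA than in the control samples of the same line. It was -0.94 for HIST1H2BC (adjusted p = 0.0391), whose samples were ordered in opposite ways in the lines, and this difference was lost without any 1 of 7 libraries. Of all genes tested, 9.87% differed in this way, and all 3 genes also differed between the lines at control siRNA.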

How the results depend on the processing

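The direction of all 12 called members was kept in every alternative that could be fitted, but their side of the threshold was not. HIST3H2A lost its call in 12 of 16 alternatives, HIST1H2BJ in 10 of 16 and H3F3AP4 in 5 of 18. The choice that lost the most calls at once was the replicate block. Without the replicate block, members called went from 9 rises and 3 falls to 1 and 0, clustered members to 0 rises, members outside the clusters to 1 rise and 0 falls, all genes to 407 rises and 204 falls, and all 3 gene lists to 0 rises and 0 falls. With a pseudocount of 0.1 the median log2 change of the clustered members was 0.21. With no filter on FPKM 3 clustered members rose, and the medians were 0.022 for clustered members and -0.022 for the others. With a mean of at least 5 FPKM required, 2 clustered members, 5 chaperone genes and 3 S phase genes rose, since fewer genes were tested, and the medians were 0.078 and 0.082. With scaling by median ratios 3 clustered members and 4 processing genes rose, and 2 clustered members rose within line 2. In line 1 alone 3 clustered members, 4 processing, 2 chaperone and 3 S phase genes rose and 2 chaperone genes fell, and the medians were 0.25 and -0.014. In line 2 alone 8 members fell, 4 of them clustered, with 1 processing gene, and the medians were 0.053 and 0.0023.

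Leaving out each library in turn gave 3 to 5 rises among the clustered members, 4 to 7 in the processing list, a median of -0.099 to -0.0047 outside the clusters, and 634 to 878 genes that differ between the lines. Within line 1 it gave 1 to 4 rises and 1 to 2 falls outside the clusters, and within line 2 it gave 1 to 4 rises and 1 to 4 falls among the clustered members; these within-line alternatives were chosen after seeing the data. Members that were not called changed sign. In line 1 alone the log2 values were 0.23 for HIST1H1C, 0.27 for HIST1H2BC, 0.038 for HIST1H2BK, 0.025 for HIST1H3E and 0.075 for HIST1H4H, and in line 2 alone 0.021 for H3F3C. Over the fits that left out 1 library, HIST1H2BC ranged from -0.34 to 0.021 and HIST1H2BK from -0.025 to 0.033. HIST1H2BK was at 0.0097 without control replicate 1 and at 0.033 without SUPT4H1 siRNA replicate 1 of line 2, and HIST1H2BC at 0.021 without SUPT4H1 siRNA replicate 2 of line 2. The cause of these changes was not tested. Depth in fragments is unknown, and near 1 FPKM the deposited intervals are wide beside the values.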
